A study of Mus musculus with 6 samples.

Results

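The cytosolic ribosomal proteins of mouse liver were examined in RNA sequencing data from mice that received oral polystyrene microplastics (PS-MP, small particles of a common packaging plastic) and mice given water. Members were protein-coding genes of GENCODE M21 with a symbol that begins with Rpl or Rps followed by a digit, or with Rplp or Rpsa, without the S6 kinases (Rps6k) and without pseudogene symbols. The pattern matched 86 genes. Rpl10l and Rpl39l were at 0 in all libraries and were left out, which gave 84 members among the 55536 genes of the files. The symbols put 50 members in the large subunit and 34 in the small subunit, and 77 of the 84 (46 large and 31 small) are canonical subunit genes. The other 7 are Rpl3l, Rpl7l1, Rpl22l1, Rpl36al, Rps27l, Rps27rt and Rps19bp1, which are relatives of subunit genes or, for Rps19bp1, a protein that binds one.

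The study gave PS-MP at 0.4 mg per day to male C57BL/6 mice, with 2 dosings per week over 8 weeks, starting at 6 weeks of age, and 3 libraries belong to that group. The other 3 libraries belong to male C57BL/6 mice of the same starting age that were given water on the same schedule. No genetic change was named for either group. The labels do not state whether each library is a different mouse, so a p-value here reflects only how much these libraries vary, which may be technical. Batch, collection hour and feeding are not given by any label.

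The ribosome is built from a large and a small subunit, each an assembly of ribosomal RNA and many proteins that are made in near-equal numbers. The mRNAs of these proteins begin with a run of pyrimidines, the terminal oligopyrimidine (TOP) tract, through which mTOR signalling and the binding protein LARP1 control how strongly they are translated and how long they are kept. In liver, ribosome production is known to follow feeding and the time of day.

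Reads per library, recovered from the deposited FPKM (reads scaled by exon length and library total), totalled 13082210, 15938284 and 14918658 in PS-MP replicates 1, 2 and 3, and 15186243, 16948343 and 14520402 in water replicates 1, 2 and 3. The libraries were of liver by their markers. The 8 hepatocyte genes summed to 46047, 44107 and 38549.7 FPKM in PS-MP and to 46149, 49189 and 46049 FPKM in water. Every PS-MP sum lay below every water sum, but PS-MP replicate 1 and water replicate 3 were nearly level. Of the 8 genes, 2 had every PS-MP value below every water value (8.12% of all genes tested did). Albumin took 7.54%, 6.98% and 5.77% of reads in PS-MP and 7.36%, 7.95% and 7.25% in water, so the groups overlapped for it. PS-MP replicate 3 stood apart. The 5 forebrain neuron markers summed to 3.09, 2.03 and 22.5 FPKM in PS-MP and to 1.27, 1.05 and 1.06 FPKM in water, and Snap25, the nerve terminal protein, had 61, 19 and 860 reads in PS-MP against 1, 2 and 0 reads in water. The 3 brown fat markers summed to 0, 0 and 5.22 FPKM in PS-MP and to 12.0, 0.128 and 2.45 FPKM in water. Of the other marker lists, 2 had sums that did not overlap between groups. These were B and plasma cells (5.31 to 6.54 FPKM in PS-MP, 7.56 to 9.68 FPKM in water) and exocrine pancreas (2.01 to 2.22 FPKM in PS-MP, 2.29 to 2.89 FPKM in water). Most of their genes had too few reads to be tested (2 of 5 and 1 of 4 were). Of those tested, 0 had groups without overlap (8.12% of all genes were lower and 11.1% higher without overlap). The part of the marker sums, the hepatocyte sum included, in the results below was not tested.

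The start sites of the mRNAs are shown first, since the TOP tract is the feature that the family is known to share. RefSeq promoter windows (GRCm38.p6, 250 bases before to 50 after each annotated start) matched 64 of the 84 members. Each line below gives 10 bases before the start and 20 from it onward, on the coding strand, with a run of C and T at or near the start in capitals, shown in full within the 30 bases. The genes are examples, chosen after the windows were seen.
Rpl15: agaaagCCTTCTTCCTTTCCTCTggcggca
Rpl28: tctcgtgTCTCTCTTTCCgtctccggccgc
Rpl35: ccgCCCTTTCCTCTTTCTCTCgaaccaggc
Rplp2: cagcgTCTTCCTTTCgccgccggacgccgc
Rps6: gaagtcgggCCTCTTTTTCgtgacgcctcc
Rps18: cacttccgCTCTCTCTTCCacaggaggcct
Rps26: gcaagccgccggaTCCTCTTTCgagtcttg
Rps27: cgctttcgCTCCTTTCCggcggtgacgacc
Rps27rt: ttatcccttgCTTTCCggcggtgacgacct
The large subunit windows lie at chr14:18270967-18270996 (minus strand) for Rpl15, chr7:4792955-4792984 (plus) for Rpl28, chr2:39005112-39005141 (minus) for Rpl35 and chr7:141447641-141447670 (plus) for Rplp2. The small subunit windows lie at chr4:86857348-86857377 (minus) for Rps6, chr17:33955646-33955675 (minus) for Rps18, chr10:128626487-128626516 (minus) for Rps26, chr3:90213629-90213658 (minus) for Rps27 and chr9:114982720-114982749 (minus) for Rps27rt.

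A TOP-like stretch was counted where a C was followed by 4 or more letters that were each C or T, whether or not the run also reached further back. Some genes have several annotated starts, and a gene counted if any of them matched. The same rule held for all genes and for the motifs below, and genes with more starts have more ways to match. An annotated start base was such a C in 13 of 57 canonical members with a window (22.8%), against 3.01% of the 27025 genes with a window. Such a C lay between 5 bases before and 10 after the start in 32 of 57 (56.1%), against 27.7% of all genes. By subunit, this held for 18 of 34 large and 14 of 23 small canonical members. Rps27 and its relative Rps27rt, which lies on another chromosome, share the bases that follow the run.

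Of the letters that ETS-family factors such as GABPA are known to bind, CCGGAAG on either strand was present in a 300-base window of 24 of 57 canonical members (42.1%), 14 of 34 large and 10 of 23 small, against 9.93% of all genes. An example of each subunit is shown as the 60 bases that precede the start, with the letters in capitals, and in Rps7 they read on the opposite strand.
Rpl37: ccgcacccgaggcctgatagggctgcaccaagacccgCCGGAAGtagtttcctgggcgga
Rps7: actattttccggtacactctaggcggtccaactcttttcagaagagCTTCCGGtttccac
These stretches lie at chr15:5116553-5116612 (plus strand) for Rpl37 and chr12:28635954-28636013 (minus strand) for Rps7. The letters GGGCGG on either strand were in 35 of 57 (61.4%), against 38.2% of all genes, and AANATGGCG on either strand, the letters known for YY1, in 5 of 57 (8.77%), against 2.76%. The motifs were counted separately, and a match is a description of the letters only.

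Ribosomal protein mRNAs were abundant and differed widely in listed level. The canonical members had a median of 47.6 FPKM over the 6 libraries, 45.1 for the large subunit and 48.7 for the small subunit, and 11 of the 77 were at 100 FPKM or more, 7 of them large and 4 small. The mitochondrial ribosomal proteins, the 77 nuclear genes for the ribosome of mitochondria, had a median of 7.23 FPKM.

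Rpl4, which lines the tunnel through which the new peptide leaves, was the most abundant of the large subunit at 193, 202 and 173 FPKM in PS-MP and 188, 186 and 184 FPKM in water. Rplp0, the base of the stalk that recruits elongation factors, followed at 138, 156 and 136 FPKM in PS-MP and 155, 153 and 145 FPKM in water. Rplp1, a stalk protein bound to it, had 134, 142 and 146 FPKM in PS-MP and 170.5, 144 and 141 FPKM in water. The groups overlapped for each of these genes, and the levels of Rplp0 and Rplp1 lay within each other's spread.

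In the small subunit, Rps3a1 had 232, 248 and 206 FPKM in PS-MP and 227, 226 and 229 FPKM in water. Rps2, a protein near the mRNA entry channel, had 152, 162 and 162 FPKM in PS-MP and 172, 170.4 and 154 FPKM in water. Rps6, the target of the S6 kinases, had 137, 162 and 124 FPKM in PS-MP and 146, 160.2 and 147 FPKM in water. For all 3 the groups overlapped, and the water values of Rps3a1 lay between the lowest and the highest PS-MP value.

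**Figure D1:**
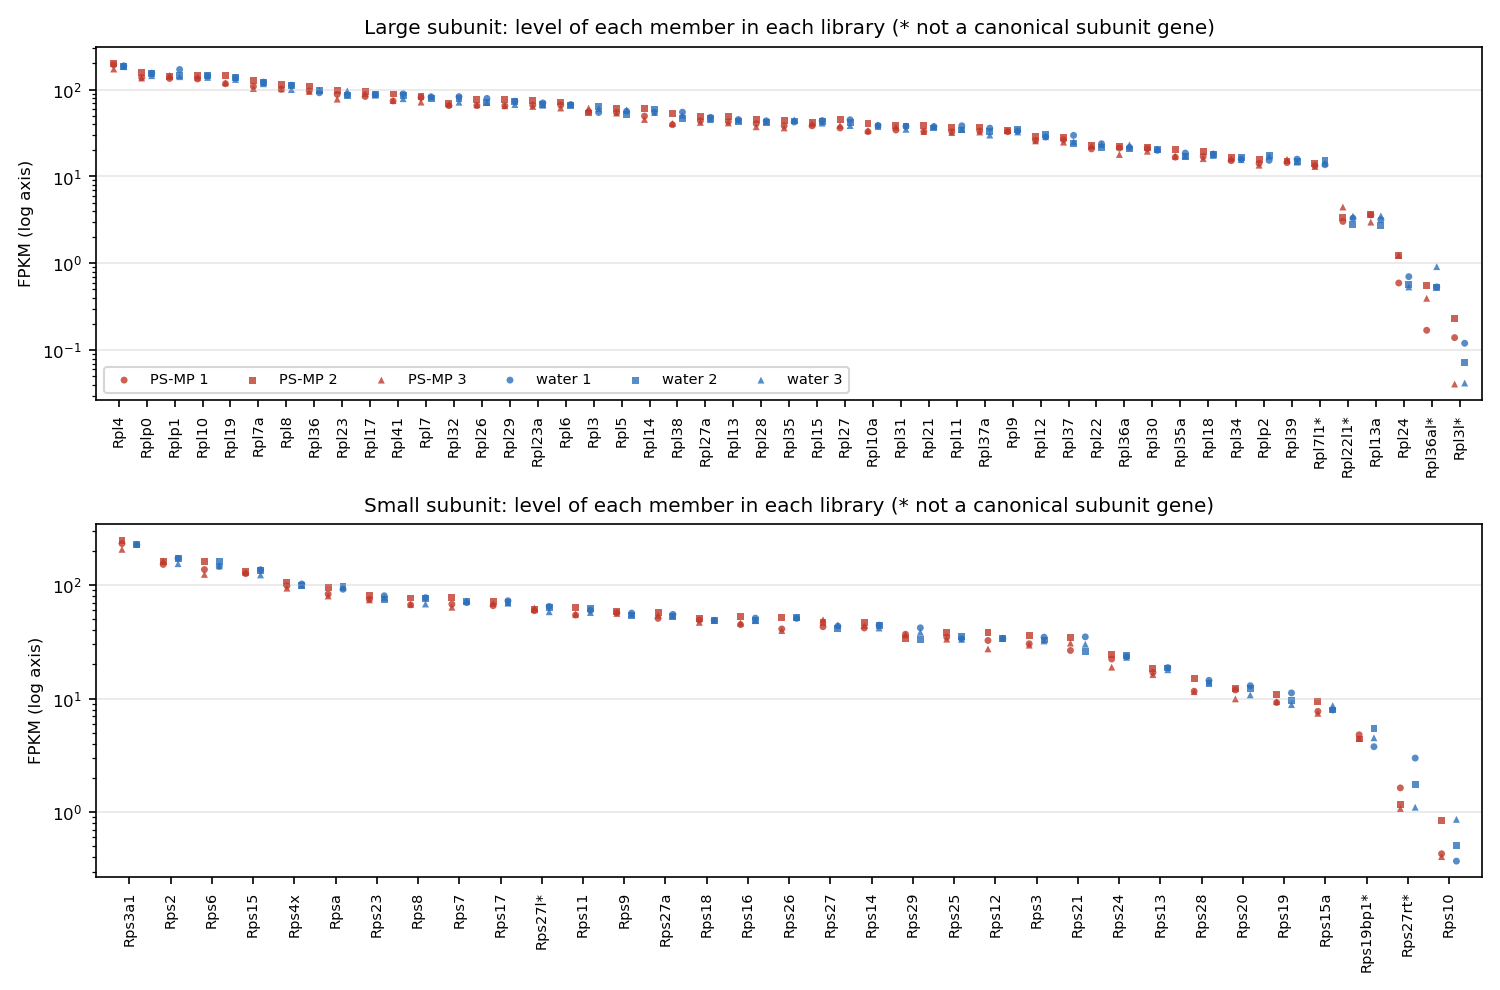
Level of 82 of the 84 members in each library, in FPKM on a log axis, with the large subunit above and the small subunit below and the genes in order of mean level. Red points left of centre are the PS-MP libraries and blue points right of centre the water libraries (circle, square and triangle for replicates 1, 2 and 3); most genes lie between 10 and 200 FPKM, with a short tail of low genes at the right of each row.

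The lowest canonical members were Rpl24 and Rps10. Rpl24 had 0.594, 1.218 and 1.236 FPKM in PS-MP and 0.703, 0.573 and 0.535 FPKM in water, and Rps10 had 0.430, 0.842 and 0.406 FPKM in PS-MP and 0.370, 0.511 and 0.864 FPKM in water. These levels rest on 8 to 20 reads for Rpl24 and 13 to 31 reads for Rps10 per library. Next in the large subunit came Rpl13a at 3.62, 3.62 and 2.98 FPKM in PS-MP and 3.18, 2.74 and 3.52 FPKM in water, and then Rpl39, a small protein of the exit tunnel, at 14.4, 15.1 and 15.8 FPKM in PS-MP and 15.8, 15.1 and 14.6 FPKM in water. In the small subunit Rps15a had 7.72, 9.45 and 7.42 FPKM in PS-MP and 7.94, 7.93 and 8.68 FPKM in water, and Rps19, a gene mutated in human Diamond-Blackfan anaemia, had 9.23, 10.9 and 9.41 FPKM in PS-MP and 11.2, 9.56 and 8.85 FPKM in water. The groups overlapped for each of these 6 genes.

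The lowest canonical members, Rps10, Rpl24 and Rpl13a, were also those whose exons other genes on the same strand cover most. Other genes on the same strand covered 47.0% of the exon bases of Rpl24, 35.4% of Rpl13a, 24.5% of Rpl36al and 20.6% of Rps10, and these were the only 4 members with 20% or more. The overlapping genes (Gm28037, Gm45713, Gm49383 and RPS10-NUDT3 among them) were themselves listed at 0 reads in all 6 libraries. Without these 4, the lowest canonical member was at 8.19 FPKM. Counting both strands, the order differed: other genes covered 66.2% of Rpl35, which was at 41.7 FPKM, and 62.3% of Rpl23a, which was at 68.0 FPKM, against 28.7% of Rps10. How the counting treated strand or a read that lies in more than 1 gene is not stated in the sources used here, and the part of the overlap in these low values was not tested.

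The merged exons that the FPKM divides by were a median of 2.35 times as long as the shortest principal mRNA of a canonical member, 9.80 times for Rps15a and 7.40 times for Rps19. Rescaled to the length of that mRNA, the level was 80.2 FPKM for Rps15a and 73.0 FPKM for Rps19, and the canonical median was 126 FPKM, with 125 FPKM for the large and 135.5 FPKM for the small subunit. On this scale Rpl10, which joins the large subunit late in its assembly, was the most abundant large subunit member at 362 FPKM, and Rps2 the most abundant small subunit member at 297 FPKM.

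Ribosomal protein genes also have many processed copies. A canonical member shared a median of 55.5% of the 50-base words of its mRNA with transcripts of other genes and had words in common with a median of 9 pseudogenes, and 47 of 77 shared 50% or more. The mitochondrial ribosomal proteins shared a median of 0%, with 1 of 77 at 50% or more. Of the canonical members, 76 shared at least 1 such word, and Rps27 shared the most, at 98.6%. For members with a high share, the level is uncertain, because reads could be split with or lost to the copies. The annotation lists 300 rows with an Rpl or Rps pseudogene symbol (-ps), and together they held 271 to 400 reads per library. Copies under other names, and any reads left out of the counting, are not in that number, so it does not measure what was lost.

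**Figure D2:**
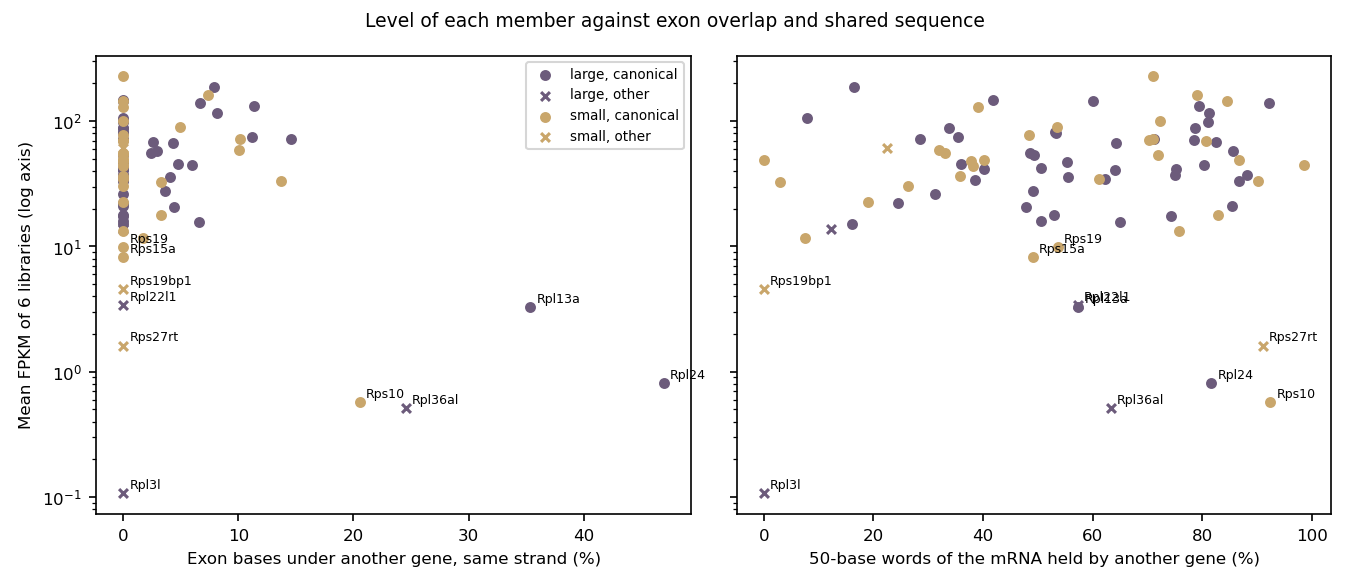
Mean FPKM of each of the 84 members (log axis) against the percent of its exon bases that other genes cover on the same strand (left) and the percent of the 50-base words of its mRNA that other genes hold (right). Colours mark the subunit and crosses the 7 genes that are not canonical subunit genes; Rpl24, Rpl13a, Rpl36al and Rps10 are the 4 points at 20% or more on the left, all under 10 FPKM.

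The comparison of PS-MP with water asked whether dosing was accompanied by a change in ribosomal protein mRNAs. None of the 82 members tested passed an adjusted p of 0.05 in either subunit (49 large and 33 small tested). Over all genes, limma-trend with Benjamini-Hochberg adjustment called 65 of 13299 (0.489%), and limma-voom on the recovered reads called 133 (1%) and again 0 members. The limma-trend count over all genes fell whichever library was left out. It was 36, 2 and 13 without PS-MP replicates 1, 2 and 3, and 3, 31 and 0 without water replicates 1, 2 and 3. Each of these fits has fewer libraries, and the part of that in the fall was not tested. At an unadjusted p under 0.05 in limma-trend, 2 members were lower in PS-MP (5.57% of all genes were) and 0 were higher (7.49% of all genes were). The smallest adjusted p of a member was 0.296. Rpl3l and Rps27rt had too few reads to be tested.

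Estimates were small and mostly below 0. The log2 fold change of PS-MP over water, on the log2(FPKM + 0.5) scale, was negative for 61 of 82 members (74.4%), 36 of 49 large and 25 of 33 small, against 46.3% of all genes tested. Its median was -0.04 over the members, with -0.04 in both subunits, while the median over all genes was 0.01. With TMM scaling both medians were lower, at -0.07 over the members and -0.01 over all genes. When a library was left out, the median over the members was -0.02 without PS-MP replicate 1 and -0.10 without PS-MP replicate 2. It was -0.01 without PS-MP replicate 3 and -0.02 without water replicate 1. The median standard error of a member was 0.08. In a bulk sample, fewer cells of a type and less RNA per cell cannot be told apart.

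For the abundant genes, the fit of all 6 libraries gives bounds on the size of a change between these libraries. For the 72 canonical members at 10 FPKM or more, the fold of PS-MP over water lay between 0.849 and 1.07. The 95% interval of limma-trend lay within a change of 1.5 times in either direction for all 72, with a lowest bound of 0.719 and a highest of 1.24. The intervals are per gene and are not adjusted for their number. Estimates moved when a library was left out: that of Rps26 was -0.24 in log2 with all libraries and -0.35 without PS-MP replicate 2.

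**Figure D3:**
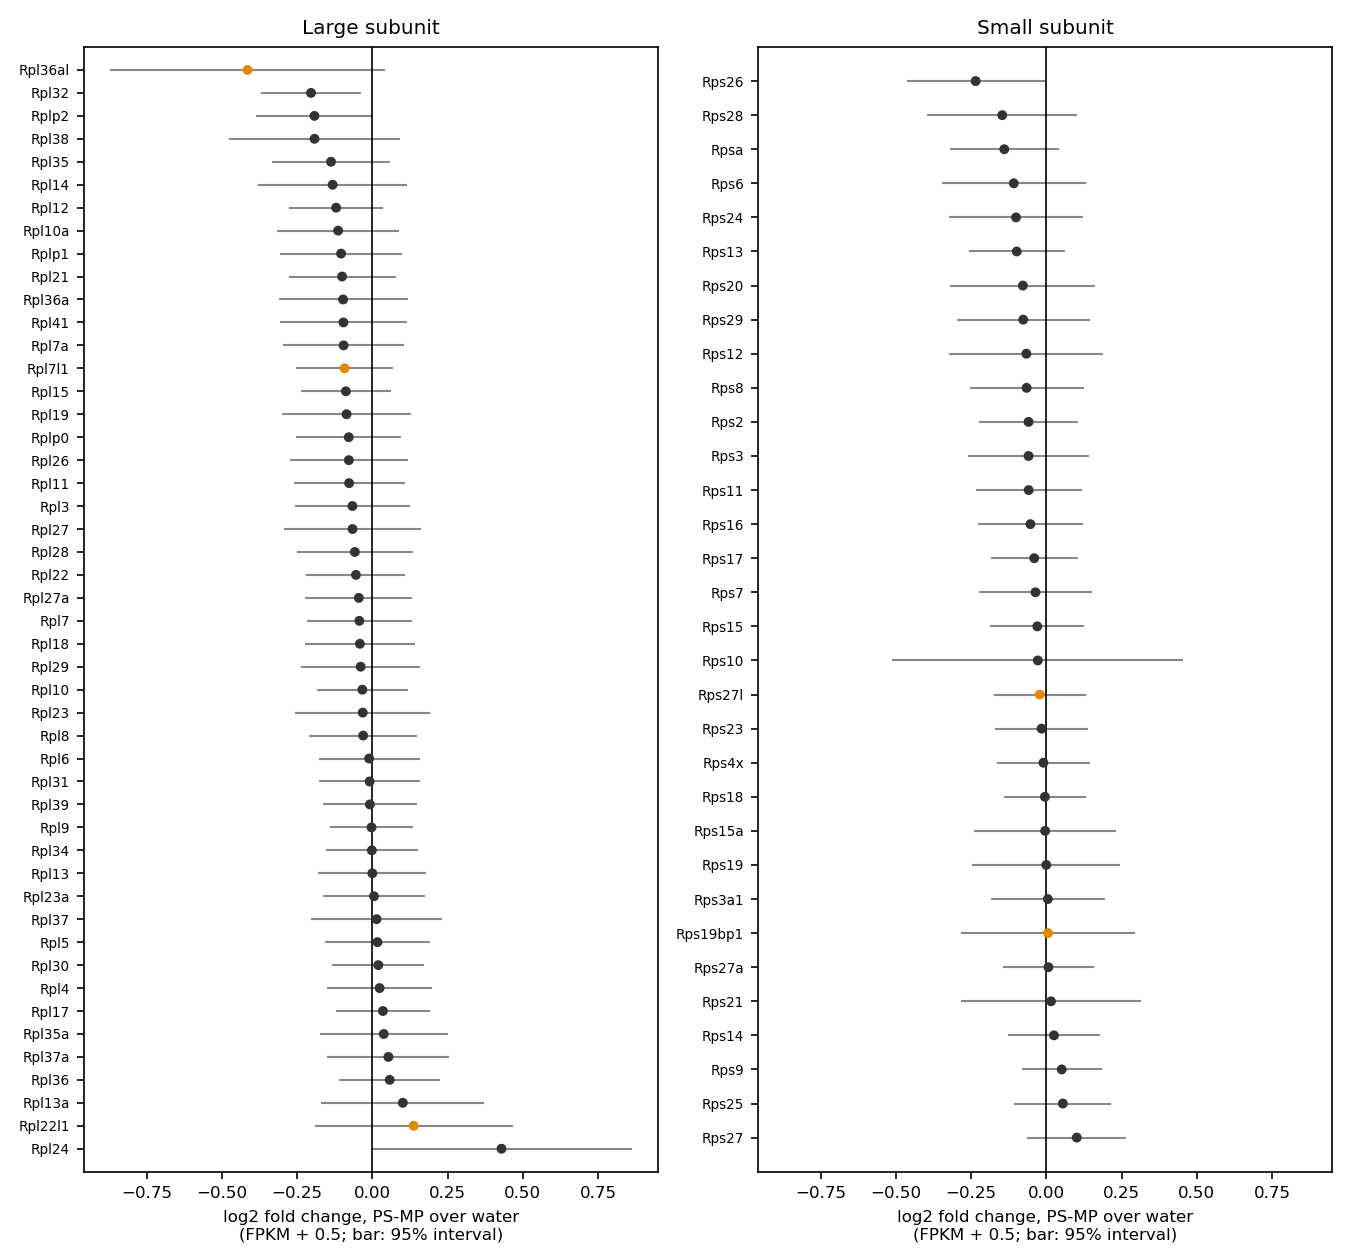
Log2 fold change of PS-MP over water on the log2(FPKM + 0.5) scale for 48 large (left) and 32 small (right) subunit members tested, with 95% intervals from limma-trend; black points are canonical subunit genes and orange points the others. Most points lie left of 0 and every interval but those of Rpl32 and Rps26 crosses it; the widest intervals belong to the low genes Rpl36al, Rpl24 and Rps10.

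Rpl32, a large subunit protein on chromosome 6 (115805505 to 115808747, GRCm38) often used to normalise PCR, had 65.5, 68.9 and 67.5 FPKM in PS-MP and 83.1, 78.5 and 71.6 FPKM in water. All PS-MP values lay below all water values. Its log2 fold change was -0.20 with a standard error of 0.07, a fold of 0.868, and the adjusted p of limma-trend was 0.296. Of the 82 members tested, 2 had every PS-MP value below every water value (8.12% of all genes did), Rpl32 among them, and 0 had every PS-MP value above (11.1% of all genes did).

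Rps26, a small subunit protein near the mRNA exit channel (chromosome 10, 128624534 to 128626747), had 41.0, 51.4 and 39.7 FPKM in PS-MP and 50.9, 52.1 and 51.8 FPKM in water. PS-MP replicates 1 and 3 were low, while PS-MP replicate 2 lay among the water values. Its log2 fold change was -0.24 with a standard error of 0.10 and an adjusted limma p of 0.374. Rpsa, known also as the laminin receptor, showed the same split, with 83.2, 94.9 and 80.1 FPKM in PS-MP and 91.8, 97.4 and 94.9 FPKM in water, a log2 fold change of -0.14 and an adjusted limma p of 0.499. Rps13 had 17.0, 18.3 and 16.3 FPKM in PS-MP and 18.7, 18.6 and 17.9 FPKM in water, with overlapping groups and a log2 fold change of -0.10.

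The stalk proteins had estimates on the same side. Rplp2, the partner of Rplp1 (chromosome 7, 141447370 to 141451585), had 14.2, 15.8 and 13.5 FPKM in PS-MP and 15.3, 17.4 and 17.1 FPKM in water, a log2 fold change of -0.19 with an adjusted limma p of 0.388. Only its PS-MP replicate 2 reached the water range. The log2 fold change of Rplp0 was -0.08 and that of Rplp1 was -0.10, where water replicate 1 alone stood above the other libraries.

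A few estimates were positive. Rpl24 had the largest of any member, a log2 fold change of 0.43 with a standard error of 0.19 and an adjusted limma p of 0.386, at the low read numbers given above. The estimate was 0.69 with limma-voom and 0.65 without PS-MP replicate 1 (adjusted limma p 0.110, in a range of 0.110 to 0.788 over its alternatives). Rps27, a zinc finger protein of the small subunit, had 42.9, 46.9 and 49.4 FPKM in PS-MP and 43.4, 41.7 and 44.5 FPKM in water. PS-MP replicates 2 and 3 were above all water values and PS-MP replicate 1 lay within them. Its log2 fold change was 0.10 with an adjusted limma p of 0.589.

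The genes fused to ubiquitin or a ubiquitin-like protein stand partly outside the symbol pattern. Rps27a, made as a ubiquitin fusion, had 50.9, 57.1 and 54.2 FPKM in PS-MP and 55.2, 52.5 and 53.6 FPKM in water, and all water values lay within the PS-MP range. Fau, which encodes a ubiquitin-like protein fused to a small subunit protein, had 65.1, 72.2 and 63.8 FPKM in PS-MP and 76.3, 72.0 and 70.8 FPKM in water, a log2 fold change of -0.12 with an adjusted limma p of 0.511. Rack1, a scaffold on the small subunit, had 29.7, 33.2 and 27.9 FPKM in PS-MP and 30.3, 31.6 and 31.2 FPKM in water, and the groups overlapped for all 3 genes.

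Relatives of the subunit genes ranged from near 0 to abundant. Rps27l, a relative of Rps27 that p53 is known to induce, had 59.4, 60.8 and 62.8 FPKM in PS-MP and 64.8, 63.1 and 58.2 FPKM in water. Rpl7l1 had 13.3, 13.97 and 13.04 FPKM in PS-MP and 13.7, 15.2 and 14.3 FPKM in water. Rpl22l1 had 3.04, 3.34 and 4.45 FPKM in PS-MP and 3.31, 2.82 and 3.50 FPKM in water, with PS-MP replicate 3 highest. Groups overlapped in each.

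Rpl36al had 0.169, 0.556 and 0.396 FPKM in PS-MP and 0.535, 0.523 and 0.916 FPKM in water, with 3 to 18 reads per library, a log2 fold change of -0.41 and an adjusted limma p of 0.429. The estimate was -0.81 with limma-voom, -0.73 with a pseudocount of 0.1, -0.23 without PS-MP replicate 1 and -0.26 without water replicate 3, with an adjusted p of 0.309 to 0.829 over its alternatives in limma. Rps27rt had 1.64, 1.17 and 1.08 FPKM in PS-MP and 2.99, 1.74 and 1.10 FPKM in water, and Rpl3l, the form of Rpl3 known from muscle, had 3, 6 and 1 reads in PS-MP and 3, 2 and 1 reads in water. Rps19bp1, which binds Rps19 and is no subunit, had 4.80, 4.40 and 4.46 FPKM in PS-MP and 3.77, 5.45 and 4.51 FPKM in water. The groups overlapped for all 4.

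The libraries within PS-MP differed in a way that most members shared. PS-MP replicate 2 was above PS-MP replicates 1 and 3 in 72 of 82 members (87.8%), 44 of 49 large and 28 of 33 small, against 30.8% of all genes tested, 39.3% of the 2840 tested genes at 10 FPKM or more and 53.2% of the mitochondrial ribosomal proteins. The 10 exceptions were Rpl3, Rpl22l1, Rpl24, Rpl39, Rplp1, Rps2, Rps19bp1, Rps27, Rps27l and Rps29. All 3 water values lay inside the PS-MP range for 37 of 82 members (45.1%), against 17.5% of all genes tested.

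The order of the libraries was alike in both subunits. The median deviation of a large subunit member from its 6-library mean, in log2, was -0.09, 0.10 and -0.10 in PS-MP replicates 1, 2 and 3 and 0.05, 0.01 and 0.00 in water replicates 1, 2 and 3. For the small subunit it was -0.06, 0.09 and -0.08 in PS-MP and 0.05, 0.01 and -0.0031 in water. The pattern was not particular to the members. For the other mRNAs with a TOP tract, described below, the median was -0.05, 0.06 and -0.12 in PS-MP and 0.01, 0.04 and 0.04 in water. There too PS-MP replicate 2 was highest and PS-MP replicate 3 lowest. PS-MP replicate 2 held the highest value of 45 members and PS-MP replicate 3 the lowest value of 37.

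The spread within a group was wider in PS-MP. The coefficient of variation within a group had a median of 7.89% in PS-MP and 3.38% in water over the 72 canonical members at 10 FPKM or more, against 6.92% in PS-MP and 6.36% in water for all tested genes at that level. Within PS-MP, the forebrain marker sum given above was lowest in replicate 2 and highest in replicate 3, the libraries with the highest and lowest ribosomal protein level of that group. The red cell marker sum (94.4, 82.0 and 157 FPKM in PS-MP replicates 1, 2 and 3) and the B and plasma cell sum were also lowest in replicate 2 and highest in replicate 3. The hepatocyte and Kupffer cell sums were instead lowest in replicate 3. The part of any of these sums in this order was not tested.

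**Figure D4:**
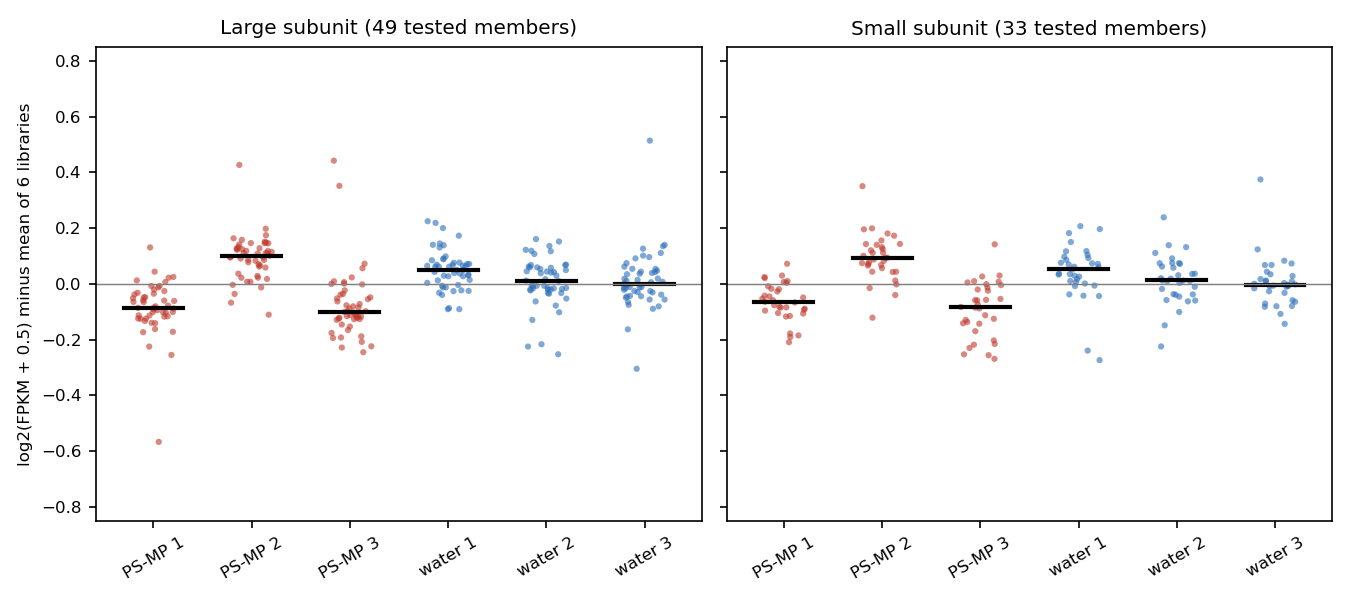
Deviation of each tested member from its mean over the 6 libraries, in log2(FPKM + 0.5), for the large (left, 49 genes) and small (right, 33 genes) subunit. Each point is a gene, red for PS-MP and blue for water, and black lines are medians: in both subunits PS-MP replicate 2 is the highest library and PS-MP replicates 1 and 3 the lowest.

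Summed over all 84 members, the level was 4443, 4945 and 4372 FPKM in PS-MP and 4841, 4733 and 4637 FPKM in water. The group means were 4587 ± 312 FPKM in PS-MP and 4737 ± 102 FPKM in water (SD, n = 3 each), so the groups differed by less than the spread within PS-MP. As a share of reads, the members took 0.786%, 0.873% and 0.767% in PS-MP and 0.848%, 0.835% and 0.821% in water. Without PS-MP replicate 2 the log2 ratio of the summed level was -0.10, against -0.05 with all libraries. It came to -0.02 when PS-MP replicate 1 was dropped, -0.01 when PS-MP replicate 3 was, and -0.03 when water replicate 1 was.

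The 2 subunits had the same order of libraries. The large subunit summed to 2602, 2918 and 2566 FPKM in PS-MP and 2862, 2784 and 2736 FPKM in water. The small subunit summed to 1841, 2027 and 1807 FPKM in PS-MP and 1979, 1949 and 1902 FPKM in water. In both, PS-MP replicate 2 was the highest of the 6 libraries and PS-MP replicate 3 the lowest.

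The ratio of the large to the small sum was 1.41, 1.44 and 1.42 in PS-MP and 1.45, 1.43 and 1.44 in water. The sums cover 50 large and 34 small members, so a ratio above 1 is no higher level per gene. The canonical median was 45.1 FPKM for the large and 48.7 FPKM for the small subunit. The ratio of the sums averaged 1.42 ± 0.0132 in PS-MP and 1.44 ± 0.00864 in water (SD, n = 3 each), a difference of -0.0133, and the groups overlapped. Counted in reads, the ratio averaged 1.490 ± 0.00470 in PS-MP and 1.492 ± 0.0112 in water. The median log2 fold change of the large subunit minus that of the small subunit was -0.0084. It was -0.0383 without PS-MP replicate 2, -0.0196 without PS-MP replicate 3 and 0.0069 without water replicate 3, and without water replicate 1 it was close to 0.

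**Figure D5:**
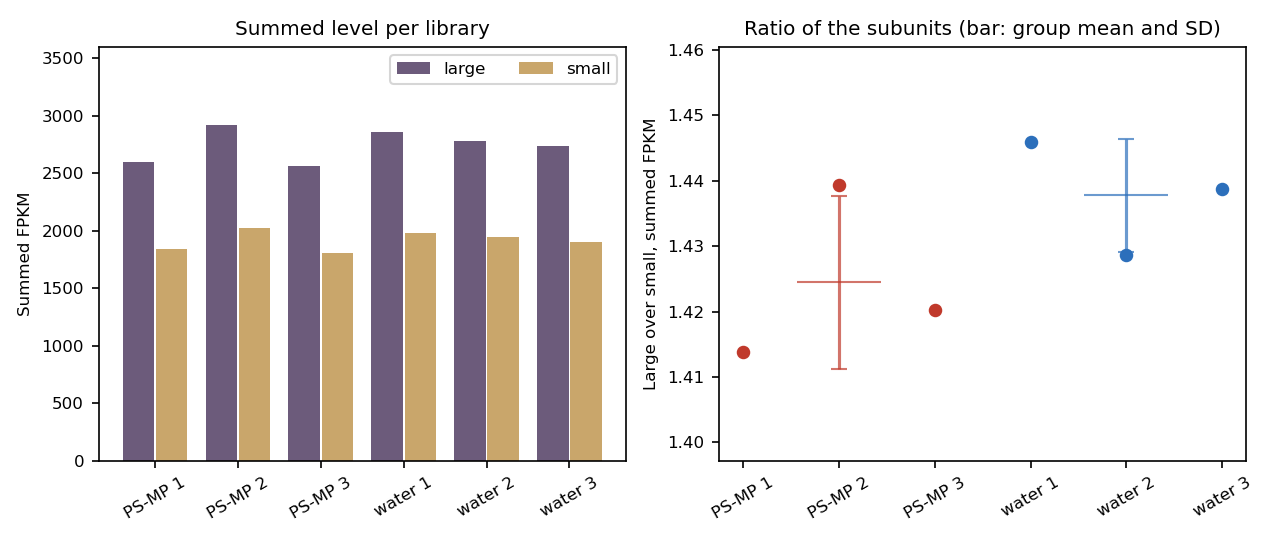
Summed FPKM of the large (purple) and small (tan) subunit members in each library (left, bars from 0) and the ratio of the large to the small sum (right, with an axis that does not start at 0; points are libraries, and bars are the group mean and SD). The sums have the same order of libraries in both subunits, with PS-MP replicate 2 highest, and the ratio stays between 1.41 and 1.45.

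Factors that build the ribosome were described from lists made from general knowledge. For these and the lists that follow, the share of all genes called was 0.489% by limma-trend and 1% by limma-voom. Of 48 tested genes for ribosome assembly, 0 were called by limma-trend or limma-voom, 2 were lower and 4 higher at an unadjusted p under 0.05 (4.17% and 8.33%, against 5.57% and 7.49% of all genes tested), and the median log2 fold change was -0.04. Nop16, a nucleolar protein of large subunit assembly, had 8.45, 8.64 and 7.70 FPKM in PS-MP and 9.89, 11.4 and 10.8 FPKM in water, a log2 fold change of -0.36 and an adjusted limma p of 0.134. Nmd3, which carries the large subunit out of the nucleus, had 2.84, 2.85 and 3.17 FPKM in PS-MP and 2.13, 2.31 and 2.36 FPKM in water, a log2 fold change of 0.32 and an adjusted limma p of 0.209. The groups did not overlap for either gene, which held for 8.12% (lower) and 11.1% (higher) of all genes, and the directions were opposite.

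Of 19 tested subunits and factors of RNA polymerases I and III, which transcribe ribosomal RNA, 0 were called by either tool, 3 were lower and 1 higher at an unadjusted p under 0.05 (5.57% and 7.49% of all genes were), and the median was -0.07. Taf1c and Taf1d, parts of the selectivity factor of polymerase I, differed in sign. Taf1c had 0.307, 0.126 and 0.327 FPKM in PS-MP and 0.585, 0.423 and 0.474 FPKM in water (adjusted p of limma-trend 0.273), and Taf1d had 2.24, 2.40 and 2.62 FPKM in PS-MP and 1.795, 1.93 and 2.07 FPKM in water (adjusted p of limma-trend 0.322). The groups did not overlap for either gene, as for 8.12% (lower) and 11.1% (higher) of all genes.

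Of 20 tested other mRNAs known to carry a TOP tract, most of them translation factors, 17 had negative estimates, 0 were called by either tool, 0 had an unadjusted p under 0.05, and the median was -0.07. Btf3, a subunit of the complex that shields new peptides, had 44.8, 46.9 and 40.01 FPKM in PS-MP and 47.0, 46.1 and 52.7 FPKM in water, with a log2 fold change of -0.15 and overlapping groups. The list includes Fau and Rack1, given above.

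Of 26 tested regulators of mTOR, TOP mRNAs and MYC, 0 were called by either tool, 1 was higher and 0 lower at an unadjusted p under 0.05 (7.49% and 5.57% of all genes were), and the median was 0.01. Mnt, a repressor that opposes MYC, had 2.45, 2.70 and 3.06 FPKM in PS-MP and 1.94, 2.19 and 1.79 FPKM in water, without overlap (11.1% of all genes), at a log2 fold change of 0.39 and an adjusted limma p of 0.213. Akt1s1, an inhibitory partner of mTOR, had 9.41, 9.89 and 8.03 FPKM in PS-MP and 11.1, 10.4 and 10.2 FPKM in water, without overlap (8.12% of all genes), at a log2 fold change of -0.21 and an adjusted limma p of 0.384.

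The mitochondrial ribosomal proteins gave a like picture of small negative estimates. Of 77 tested, 60 had a negative log2 fold change (77.9%, against 46.3% of all genes tested), and the median was -0.05. By either tool 0 were called, and 4 were lower and 0 higher at an unadjusted p under 0.05 in limma-trend (5.57% and 7.49% of all genes were). Their summed level was 599.9, 641 and 594 FPKM in PS-MP and 662, 672 and 606 FPKM in water, and the groups overlapped.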

How the data were processed

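Each library has its own deposited table of FPKM per gene, computed by the authors. The tools listed in the submitters' processing notes are CASAVA, FastQC, MultiQC, Trimmomatic (0.38), HISAT2 (2.1.0), featureCounts (1.6.0) and DESeq2 (1.22.1). GRCh38, a human build, is listed there, but the identifiers belong to mouse GENCODE M21 (GRCm38), which gave symbols, lengths and coordinates. How strand, read pairs and reads with several matches were counted is not stated in those sources.

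FPKM times merged exon length gave whole reads within 0.001 for 100% of genes above 0. Genes with 0.66 CPM in 3 libraries and 15 reads in all were tested with limma-trend (limma 3.58.1, R 4.3.3) on log2(FPKM + 0.5), which understates changes of low genes; limma-voom on the recovered reads was an alternative. No pair of libraries within a group agreed within sampling noise (chi-square 9.99 to 28.3 times its degrees of freedom). The members, lists and rule for named genes were chosen with earlier results of these data known. Named were the 4 canonical members with the smallest p, the 3 highest and 3 lowest in each subunit, all relatives, stalk proteins and ubiquitin fusions, and up to 2 genes per list. A few genes picked by it are not reported here. Rack1 and Rpl10 were chosen after their values were seen, as were the genes whose sequences are shown.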

Additional observations from a re-analysis of the deposited data

How the results depend on the processing

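No member was called in the alternatives (scaling, pseudocount, low-count rule, limma-voom, robust variance, replicate block, single libraries left out). With no low-count rule and without water replicate 3, 0 of all genes were called, so those settings could not have called a member. Taking the canonical subunits only re-reads the same fit, so its count could not differ. Without the libraries with Ucp1 reads, only water replicate 2 was left in its group, so calls are not given for that fit. The median log2 fold change of the members was -0.04 as reported and -0.07 with TMM scaling (0.01 and -0.01 over all genes). It was -0.10 to -0.01 when single libraries were left out, and -0.0020 without the libraries with Ucp1 reads. The large minus small difference was -0.0084 as reported and -0.0318 without the Ucp1 libraries. When single libraries were left out it was -0.0383 (without PS-MP replicate 2) to 0.0069 (without water replicate 3). The cause was not tested. In this balanced design the replicate block cannot change a fold change, so it is no check on these estimates or on the direction of named genes. The low-count rules and the robust variance also leave the fold change of each gene as it is, so they are no check on direction either. Of 338 refits of 20 named genes, 337 kept their direction and side of the threshold. These include the settings just named, where direction was fixed. They also include settings with 0 calls over all genes, where the side of the threshold was fixed. Rpl22l1 (0.14) turned to -0.0041 without PS-MP replicate 3, in a range up to 0.24 over single libraries left out. Over all genes, 65 calls became 23 with the block, 0 without water replicate 3, 0 with no low-count rule, 3 without water replicate 1, 2 without PS-MP replicate 2 and 13 without PS-MP replicate 3. Same-numbered libraries did not deviate together (correlations -0.04, 0.05 and -0.01). The labels do not state a pairing, and a weak shared effect could be missed with so few libraries. Rpl24, Rps10 and Rpl36al had at most 31 reads in a library, so the size of change seen in the other members was not detectable for them at this depth.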
